A study of Homo sapiens with 8 samples.

Results

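The monocyte and lymphocyte chemokines examined here are 10 genes, CCL2, CCL5, CCL20, CCL28, CXCL9, CXCL10, CXCL11, CXCL14, CXCL16 and CX3CL1, found by their Entrez gene identifiers among the 17131 genes of the expression table. All 10 were listed, and 5 of them held enough reads to be tested. The libraries came from HaCaT cells, an established line of human keratinocytes of wild type genotype. Every culture is described in the study's methods as exposed to M5, a mixture of the 5 cytokines IL-17A, IL-22, IL-1α, TNF-α and oncostatin M at 10 ng/mL for 24 h, which gives keratinocytes in culture some features of psoriatic skin. In a set of the cultures OTS514, an inhibitor of the kinase TOPK (gene PBK), was given at 10 nM for 12 h beforehand and then together with M5.

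The 8 libraries were titled M5_O5 (n = 4) or M5 (n = 4). The titles and the treatment entries name opposite groups as inhibited: the libraries titled M5_O5 carry the entry "No treament", and those titled M5 carry the entry "TOPK inhibitor". Groups are therefore named by title throughout, each difference is given as M5_O5 relative to M5, and which of the groups received OTS514 is not taken from the values. PBK itself held 38 to 62 reads in the M5_O5 libraries and 9 to 36 in the M5 libraries. The 36 reads were those of M5 replicate 1, the shallowest library. On a per-depth scale (CPM) that library was at 2.63 and M5_O5 replicate 3 at 2.25, so the groups overlapped for PBK. The other M5 libraries were at 0.588 to 0.987 CPM. No culture without M5 was analysed here, so the induction of a chemokine by the cytokines was not measured, and all cells came from 1 cell line. Whether the replicates came from separate cultures is not stated, and p-values measure only the spread between these libraries.

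Chemokines are small secreted proteins that bind to glycosaminoglycans on cells and matrix and draw leukocytes along their gradients through G protein-coupled receptors. CCL2 recruits monocytes through CCR2, CCL5 recruits monocytes and T cells through receptors that include CCR1 and CCR3, CCL20 draws T cells of the Th17 type and immature dendritic cells through CCR6, and CCL28 binds CCR10 and CCR3. CXCL9, CXCL10 and CXCL11 are interferon-induced ligands of CXCR3, CXCL14 is made by resting epithelium, and CXCL16 and CX3CL1 are made as membrane-anchored proteins that ADAM proteases can release. In psoriatic skin, keratinocyte CCL20 is known as part of the loop that brings IL-17-producing T cells to the epidermis.

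Total estimated counts ranged from 13708055 to 16922693 per library. Replicate 1 of M5 was the shallowest library and differed most from the others of its group, with a chi-square per gene of 10.2 to 16.2 against them, where the other M5 pairs gave 2.01 to 4.01. Replicate 1 of M5_O5 also stood apart, at 7.15 to 11.1 against its group, where the other pairs gave 3.02 to 7.15. Levels are given as CPM, the usual per-depth scale of read counts, corrected between libraries by TMM (trimmed mean of M-values). The keratinocyte markers KRT5, KRT14, KRT6A, KRT6B, KRT16, KRT17, TP63, DSG3, ITGA6 and COL17A1 were all detected, with a summed level of 18920 to 21418 CPM in M5_O5 and 22984 to 25758 in M5. Markers of leukocytes were at or near 0: PTPRC, the pan-leukocyte phosphatase CD45, and the macrophage gene AIF1 had no read in any library, and the 3 T cell markers listed (CD3E, CD3G and CD4) summed to at most 0.588 CPM. CD14 was the exception among the monocyte markers, with 482 to 615 reads per library and an adjusted p of 0.121 (edgeR). The monocyte marker sum was 31.2 to 36.9 CPM in M5_O5 and 35.5 to 39.8 in M5. The fibroblast marker sum, nearly all of it COL1A1, was 31.1 to 35.3 CPM in M5_O5 and 42.1 to 56.8 in M5, and that of the endothelial markers was 3.10 to 3.79 and 0.311 to 1.05 CPM. Of the latter, CDH5 carried the difference, while PECAM1 and TEK reached at most 1 read. The melanocyte sum stayed at or below 1.09 CPM. The part of these markers in the chemokine differences was not tested. In bulk RNA, fewer cells making a transcript and less transcript per cell cannot be told apart.

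Across the 12434 genes tested with edgeR's quasi-likelihood test, 2421 were higher in M5_O5 (19.5%) and 2192 lower (17.6%) at an adjusted p under 0.05. That near-even split depended on the scaling: library size alone gave 3858 higher and 1008 lower, and limma on log2(TPM + 1) and log2(TPM + 0.1) gave 3261 and 761 and 3264 and 768. With a change of at least 2-fold added, 357 were higher (2.87%) and 41 lower (0.33%). Removing the trend of fold change with expression level made that split 236 to 72. The values of the 4 M5_O5 libraries all lay above those of the 4 M5 libraries for 17.8% of genes and all below for 15.8%. Against this background, CCL2 and CXCL16 of the 5 chemokines tested were higher, CCL5 and CCL20 were lower, and CCL28 did not pass. Only CCL2 reached 2-fold among them. Groups of libraries did not overlap for 4 of the 5, CCL28 being the exception. With so few chemokines tested, these shares are a description and were not compared with the background by a test.

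**Figure D1:**
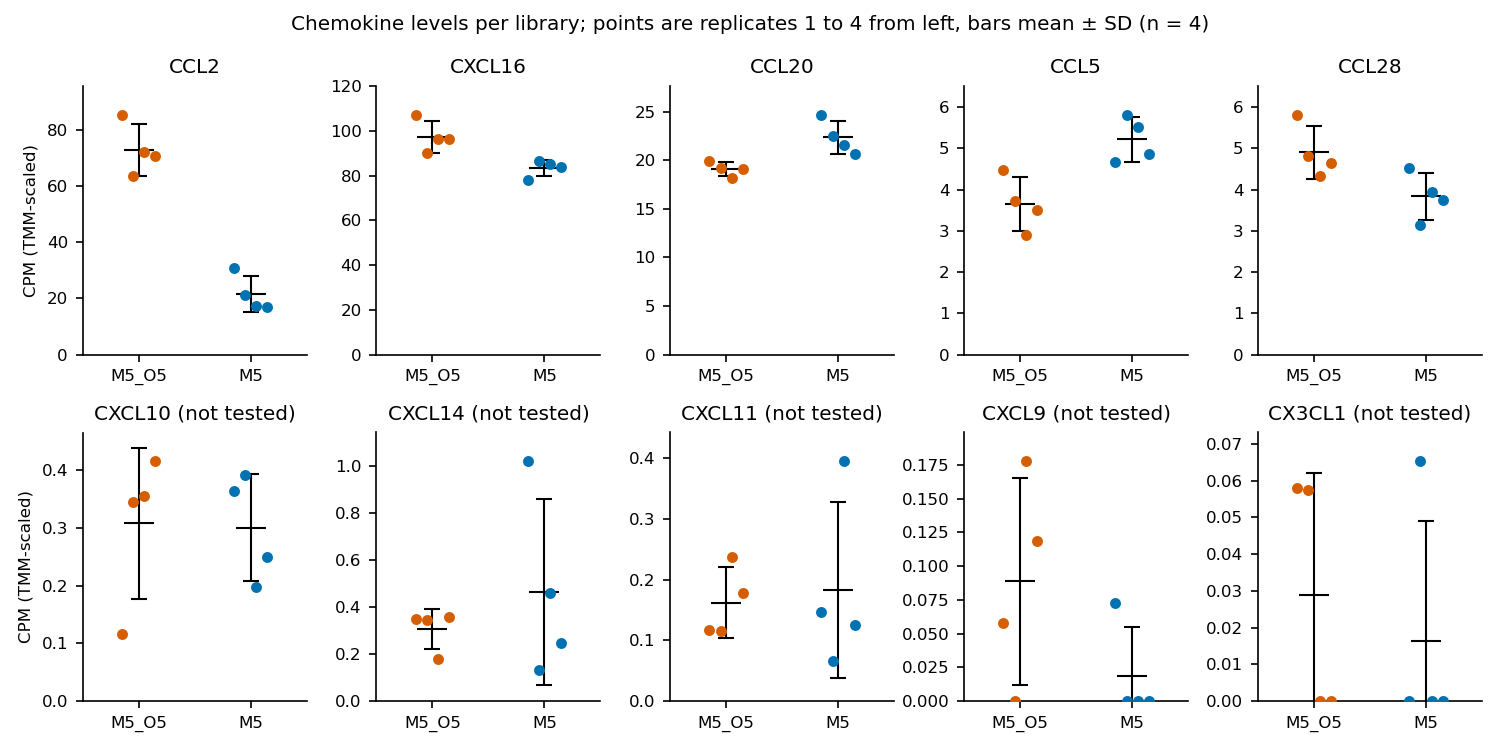
Level of each chemokine in CPM (TMM-scaled counts) per library, orange for M5_O5 and blue for M5, with the mean ± SD of 4 libraries as black bars and a separate vertical axis from 0 in each panel. CCL2 lies between 63.4 and 85.4 CPM in M5_O5 and between 16.94 and 30.9 CPM in M5, whereas the 5 genes of the lower row, which were not tested, stay near or below 1 CPM.

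CCL2, the chief monocyte attractant, was the most changed chemokine of the set. Its levels were 85.4, 63.4, 72.1 and 70.8 CPM in M5_O5 replicates 1 to 4 and 30.9, 21.3, 17.3 and 16.94 CPM in M5 replicates 1 to 4. These values rested on 1104 to 1469 reads per M5_O5 library and 263 to 424 per M5 library. Every M5_O5 library was above every M5 library, and within each group replicate 1 was the highest. The means were 72.9 ± 9.15 (SD, n = 4) and 21.6 ± 6.52 CPM (SD, n = 4), a 3.39-fold difference with a 95% interval of 2.71 to 4.23. The log2 fold change was 1.76 (SE 0.15, adjusted p = 2.23e-06, edgeR), and a two-sided exact permutation test on CPM gave p = 0.0286, the smallest that 4 against 4 libraries allow. Without M5 replicate 1 the log2 fold change was 1.98, and without M5_O5 replicate 1 it was 1.68. The single RefSeq transcript NM_002982 carried all CCL2 reads.

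CXCL16, a membrane-anchored ligand of CXCR6 that also serves as a scavenger receptor, was higher in M5_O5 by a small amount. The 4 M5_O5 libraries held 107.3, 90.1, 96.7 and 96.3 CPM and the 4 M5 libraries 78.3, 86.7, 85.3 and 84.1 CPM. The groups did not overlap, though the lowest M5_O5 library and the highest M5 library were close together. Means were 97.6 ± 7.16 and 83.6 ± 3.67 CPM (SD, n = 4 each), a 1.17-fold difference on 1073 to 1846 reads per library. The log2 fold change was 0.22 (SE 0.062, 95% interval 0.09 to 0.36, adjusted p = 0.0117, edgeR). Under all 16 alternatives in processing it stayed past the threshold, with log2 fold changes of 0.17 to 0.34.

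CCL5, also called RANTES, was low and was lower in M5_O5. It measured 4.48, 3.73, 2.90 and 3.51 CPM in the M5_O5 libraries and 4.67, 5.81, 5.53 and 4.86 CPM in the M5 libraries, on 49 to 89 reads each. The highest M5_O5 library, replicate 1, lay just under the lowest M5 library, which was also replicate 1. The means were 3.65 ± 0.65 and 5.22 ± 0.54 CPM (SD, n = 4 each). CCL5 fell by 0.51 on the log2 scale (SE 0.15, 95% interval -0.83 to -0.19, adjusted p = 0.0146, edgeR). On the deposited per-length scale the groups overlapped, since M5_O5 replicate 1 held 8.36 TPM (a level divided by transcript length and scaled to a fixed sum per library) and M5 replicate 4 held 7.99. Scaling by library size alone gave a log2 fold change of -0.39 and an adjusted p of 0.0503, and the other 15 alternatives passed.

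CCL20, the CCR6 ligand, differed least securely among the chemokines that passed. Levels were 19.9, 19.2, 18.1 and 19.1 CPM in M5_O5 and 24.7, 22.5, 21.5 and 20.6 CPM in M5, on 306 to 345 reads per library. All M5_O5 libraries lay below all M5 libraries, with M5 replicate 1 the highest of the 8. Mean levels were 19.1 ± 0.74 and 22.3 ± 1.74 CPM (SD, n = 4 each). CCL20 fell by 0.22 on the log2 scale (SE 0.076, 95% interval -0.39 to -0.06, adjusted p = 0.0324, edgeR). This call was kept in 8 of 16 alternatives, over which the adjusted p ranged from 0.0146 to 0.408. It was lost when M5_O5 replicate 2, 3 or 4 or M5 replicate 1 or 2 was left out. Scaling by library size alone gave a log2 fold change of -0.11 and an adjusted p of 0.324. That scaling raised the median of all genes from 0.01 to 0.13 on the log2 scale, and relative to that median CCL20 was at -0.24 under both scalings. On the TPM scale its groups overlapped, from 56.4 to 64.5 TPM in M5_O5 and from 59.98 to 79.2 TPM in M5.

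CCL28, a mucosal chemokine that keratinocytes also make, did not pass the test. It measured 5.81, 4.82, 4.33 and 4.64 CPM in M5_O5 and 4.53, 3.14, 3.95 and 3.74 CPM in M5, on 48 to 100 reads. M5 replicate 1 lay above M5_O5 replicate 3, so the groups overlapped. Means of 4.90 ± 0.64 and 3.84 ± 0.57 CPM (SD, n = 4 each) gave a log2 fold change of 0.36 (SE 0.15, 95% interval 0.04 to 0.67, adjusted p = 0.0714, edgeR). It passed in 4 of 16 alternatives: without M5 replicate 1 (0.44, adjusted p = 0.0269), with library size scaling (0.47, 0.0286), and with limma on log2(TPM + 1) and log2(TPM + 0.1) (0.42 and 0.55, adjusted p of 0.0271 and 0.0307).

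**Figure D2:**
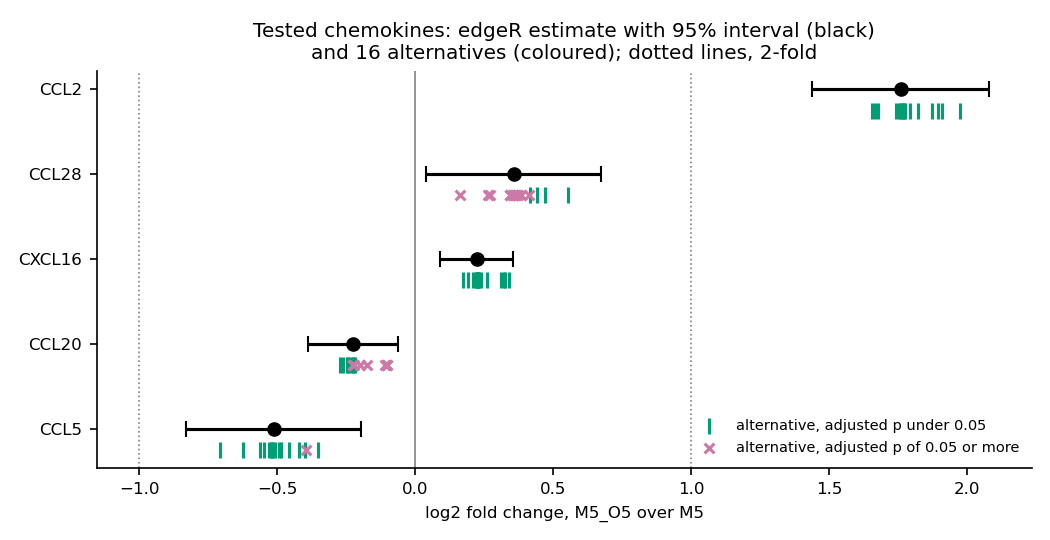
Log2 fold change of M5_O5 over M5 for the 5 tested chemokines, with the edgeR estimate and its 95% interval in black and 16 alternative processings below it, green where the adjusted p was under 0.05 and pink where it was not. CCL2 lies beyond the 2-fold line throughout (1.66 to 1.98 in the alternatives), and none of the 5 changes side of 0.

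The interferon-induced chemokines CXCL9, CXCL10 and CXCL11 were barely read in these cells. CXCL9 had 1, 0, 3 and 2 reads in M5_O5 replicates 1 to 4 and 1, 0, 0 and 0 in M5. CXCL10 had 2, 6, 6 and 7 reads in M5_O5 and 5, 6, 3 and 4 in M5. CXCL11 had 2, 2, 4 and 3 reads in M5_O5 and 2, 1, 6 and 2 in M5. The groups of all these genes overlapped, and two-sided exact permutation tests gave p = 0.257, 0.914 and 0.857 for CXCL9, CXCL10 and CXCL11. A limit of 3 counts, at or below which a library's count was not told from 0, corresponded to 0.172 to 0.219 CPM. When edgeR was run without a filter on 16585 genes, the 95% interval of the log2 fold change was -0.98 to 1.05 for CXCL10 and -1.51 to 1.16 for CXCL11, so at this depth a 2-fold higher level of either, or a 2-fold lower level of CXCL11, could not be told from none. CXCL9 stayed at or under 3 reads in every library, and no fold is given for it.

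The other untested genes were CXCL14 and CX3CL1. CXCL14 had 6, 6, 3 and 6 reads in M5_O5 and 14, 2, 7 and 4 in M5, where replicate 1 was highest and the groups overlapped (two-sided exact permutation p = 0.6). CX3CL1, or fractalkine, had 1, 1, 0 and 0 reads in M5_O5 and 0, 1, 0 and 0 in M5. Neither difference was detectable at this depth, with an interval of -1.64 to 0.55 on the log2 scale for CXCL14.

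The chemokines therefore fell into a read group and a nearly unread group. The promoters of a member of the first, CCL20, and of the CXCR3 ligands from the second are shown. Those of CCL28 and CXCL14 were searched for the same motifs and are not printed. Each of them held at most 1 match, so the printed promoters are those with the most matches. The set of RefSeq promoters used here (GRCh38.p14) held 6 of the 10 genes (CCL20, CCL28, CXCL9, CXCL10, CXCL11 and CXCL14). CCL2, CCL5, CXCL16 and CX3CL1 had no entry in that set, which is a limit of the set and not a property of the genes. The 250 bases before the transcription start are printed 5′ to 3′ on the gene's strand, with capitals where a searched motif matched on either strand.

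CCL20 (chr2:227813592-227813841, plus strand): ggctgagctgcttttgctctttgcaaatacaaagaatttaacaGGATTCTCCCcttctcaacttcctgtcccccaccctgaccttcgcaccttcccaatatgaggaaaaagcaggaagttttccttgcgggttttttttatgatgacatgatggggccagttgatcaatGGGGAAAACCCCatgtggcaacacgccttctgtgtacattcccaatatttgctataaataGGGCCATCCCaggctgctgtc
CXCL9 (chr4:76007510-76007759, minus strand): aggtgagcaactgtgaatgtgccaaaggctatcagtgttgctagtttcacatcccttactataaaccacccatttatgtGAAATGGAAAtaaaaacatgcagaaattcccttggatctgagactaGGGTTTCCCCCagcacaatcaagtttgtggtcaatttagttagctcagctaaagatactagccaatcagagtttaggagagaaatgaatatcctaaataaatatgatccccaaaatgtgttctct
CXCL10 (chr4:76023498-76023747, minus strand): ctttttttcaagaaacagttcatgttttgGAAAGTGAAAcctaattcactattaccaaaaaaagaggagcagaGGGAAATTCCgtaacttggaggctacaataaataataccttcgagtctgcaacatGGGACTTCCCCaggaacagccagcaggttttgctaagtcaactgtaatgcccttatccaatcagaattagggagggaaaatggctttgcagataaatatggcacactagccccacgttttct
CXCL11 (chr4:76036071-76036320, minus strand): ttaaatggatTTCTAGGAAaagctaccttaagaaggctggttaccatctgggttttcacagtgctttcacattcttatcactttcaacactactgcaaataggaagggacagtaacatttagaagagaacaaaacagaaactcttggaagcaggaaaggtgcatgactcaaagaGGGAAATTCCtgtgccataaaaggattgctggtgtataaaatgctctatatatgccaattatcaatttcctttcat

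Searched were the NF-κB-type motif GGGNNNNNCC, the interferon-stimulated response element GAAANNGAAA and the STAT-type GAS motif TTCNNNGAA. The NF-κB-type motif was held by 54.4% of 35116 RefSeq promoters of this length, the interferon-stimulated element by 3.02% and the GAS motif by 6.57%. CCL20 held NF-κB-type matches between 81 and 70, between 21 and 12 and between 207 and 198 bases before its start, the first of them made of overlapping matches on both strands. CXCL10 held an interferon-stimulated element 221 to 212 bases before its start and NF-κB-type matches at 177 to 168 and 122 to 112. CXCL9 held the same element at 171 to 162 and an NF-κB-type match at 125 to 115, and CXCL11 held a GAS match at 240 to 232 and an NF-κB-type match at 76 to 67. The only other match among the 6 genes was an NF-κB-type match in a CCL28 promoter, 48 to 39 bases before its start. Promoters of the barely read CXCR3 ligands and of CCL20 thus both held NF-κB-type letters, which more than 1 in 2 promoters hold.

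Compared per length, CCL2 was the most abundant of the 10 transcripts, with a mean of 180 TPM over the 8 libraries. CXCL16 followed at 77.0 TPM, CCL20 at 63.2, CCL5 at 7.63 and CCL28 at 2.80 TPM. Below these came CXCL10 (0.56), CXCL14 (0.45), CXCL11 (0.23), CXCL9 (0.036) and CX3CL1 (0.011 TPM). The order at the top depended on the group. In M5_O5 the ranges were apart, at 245 to 334 TPM for CCL2, 76.3 to 97.4 for CXCL16 and 56.4 to 64.5 for CCL20. In M5 they overlapped, at 59.3 to 121, 67.3 to 69.5 and 59.98 to 79.2 TPM. CCL2 made up 62.4% to 65.6% of the summed TPM of the 10 chemokines in M5_O5 and 29.6% to 43.0% in M5, where replicate 1 gave the highest share. The sum itself was 393 to 509 TPM in M5_O5 and 198 to 282 TPM in M5.

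**Figure D3:**
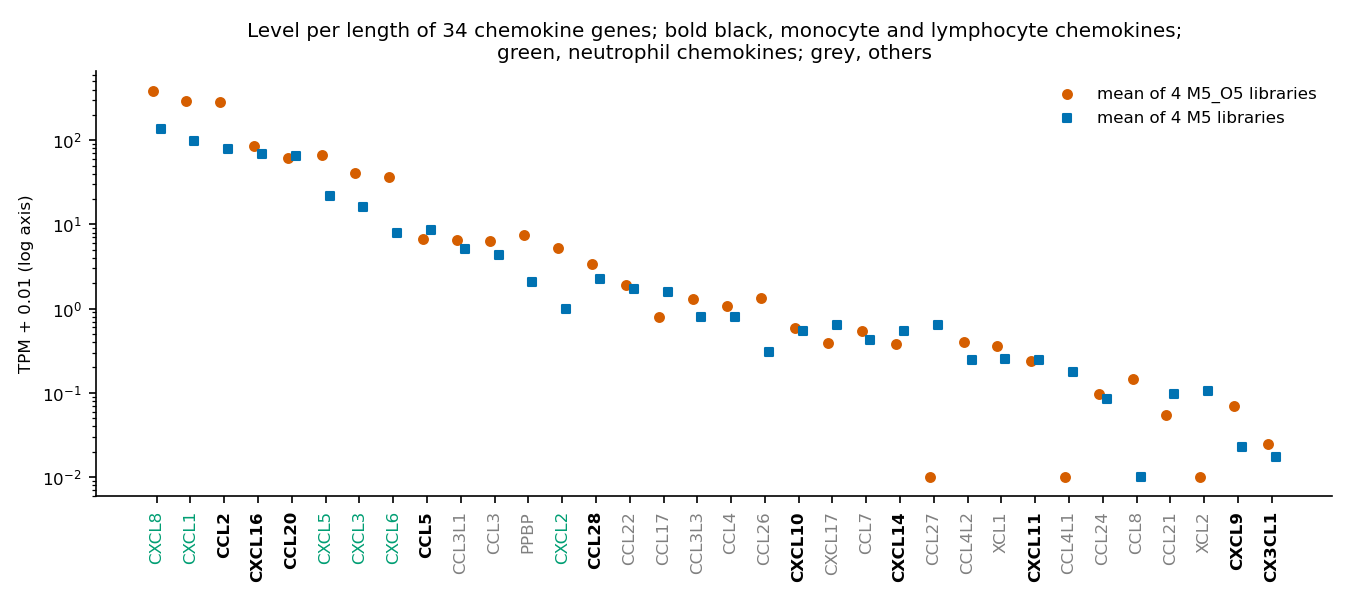
Mean level per length of the 34 chemokine genes in the table, as TPM + 0.01 on a log axis, orange circles for the 4 M5_O5 libraries and blue squares for the 4 M5 libraries, with the 10 monocyte and lymphocyte chemokines in bold. CCL2, CXCL16 and CCL20 stand beside CXCL8 and CXCL1 at the left, and CXCL9 and CX3CL1 are the 2 lowest at the right.

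Within the groups the chemokines did not all follow the same library. M5_O5 replicate 1 was the highest of its group for all 5 tested genes. M5 replicate 1 was the highest of its group for CCL2, CCL20 and CCL28 and the lowest for CCL5 and CXCL16. With that library left out, CCL5 and CXCL16 kept adjusted p-values under 0.05 and CCL20 did not (log2 fold change -0.18, adjusted p = 0.0686, edgeR). Without M5_O5 replicate 1, CXCL16 was at 0.17 (adjusted p = 0.0316), CCL5 at -0.63 (0.00622), CCL20 at -0.25 (0.0307) and CCL28 at 0.26 (0.19).

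The deposited table lists transcripts, and their shares within a gene were read as a description. CCL20 reads were divided between NM_004591 (49.9% to 61.0% over the 8 libraries) and NM_001130046 (39.0% to 50.1%). CXCL16 reads were mostly assigned to NM_001386809, with 7.15% to 18.1% on NM_001100812, and CCL28 reads mostly to NM_001301875 (79.5% to 96.8%). CCL5 reads were split between NM_002985 and a second placement of the same transcript, the former taking from 0% to 90.4% and the latter from 0% to 90.04%. Both placements are copies of 1 transcript, so the split carries no isoform information and only the sum over the gene was compared. Exact permutation tests of the transcript shares between groups gave no p under 0.0571, which was for NM_001301873 of CCL28 (8.004% and 4.76%). That transcript rested on 4.24 to 8.93 estimated counts per M5_O5 library and 1.53 to 4 per M5 library, near the limit of 3 counts.

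**Figure D4:**
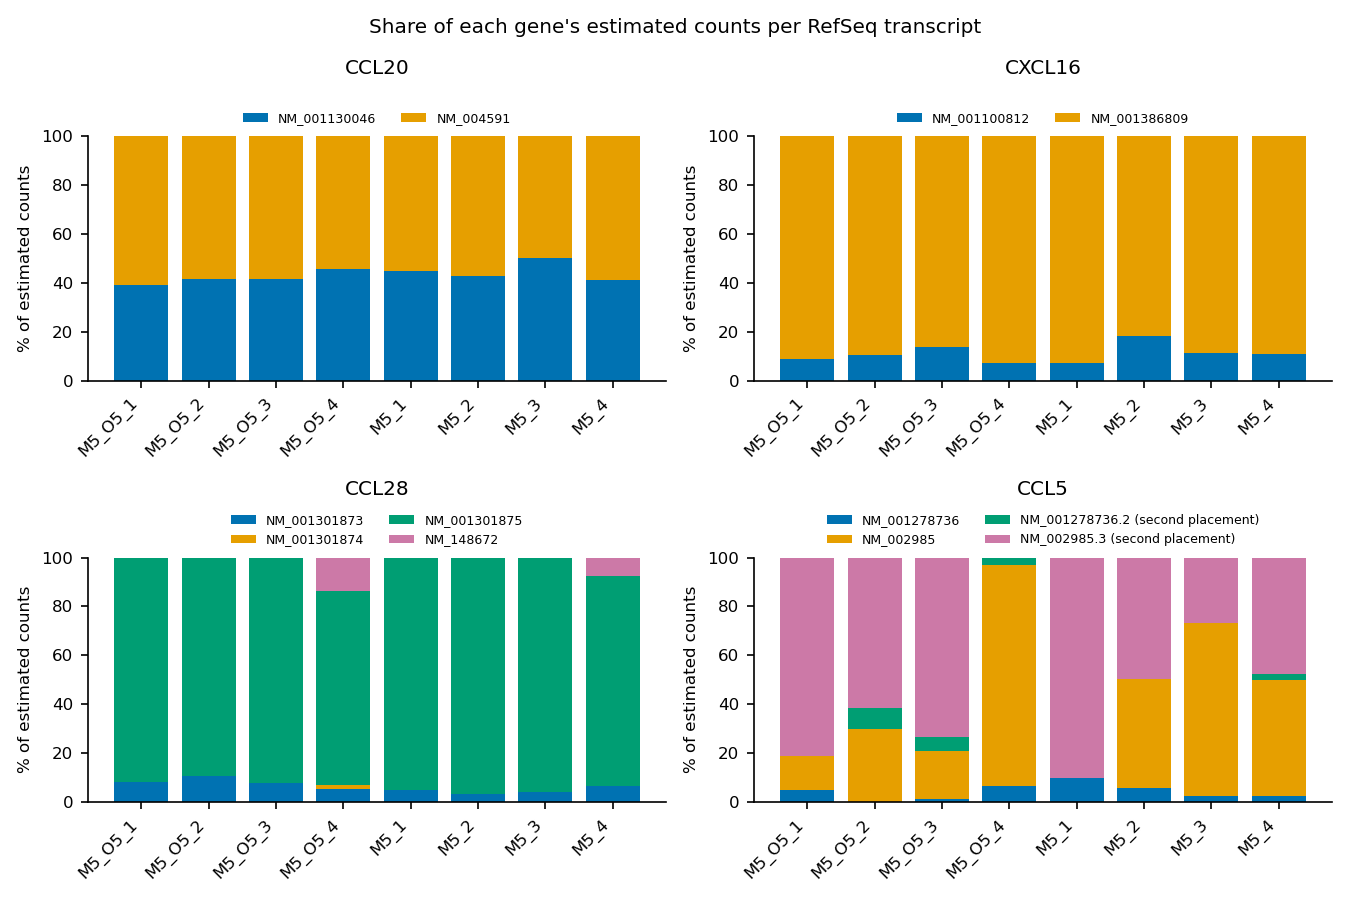
Share of the estimated counts of CCL20, CXCL16, CCL28 and CCL5 assigned to each RefSeq transcript, in percent, in the 4 M5_O5 and 4 M5 libraries. CCL20 is divided in a like way in all libraries, whereas CCL5 switches between the 2 placements of NM_002985, which holds none of the reads in M5 replicate 1 and 90.4% in M5_O5 replicate 4.

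The whole chemokine family gave the setting for these values. Of 48 human chemokine genes looked up, 34 were in the table and 15 were tested, of which 9 were higher in M5_O5 and 2, CCL5 and CCL20, were lower, beside 19.5% and 17.6% of all genes tested. The median log2 fold change of the 15 was 1.21, against 0.01 over all genes tested. The neutrophil attractants CXCL2 (2.33), CXCL6 (2.099), CXCL5 (1.499), CXCL1 (1.45), CXCL8 (1.40) and CXCL3 (1.21), which signal through CXCR2 and for some also CXCR1, were all higher, with adjusted p of at most 5.47e-05. PPBP, a platelet chemokine of the same branch, was higher by 1.73 on 17 to 91 reads. CCL2 thus lay within the range of these genes, and CXCL16, CCL28, CCL20 and CCL5 lay below all of them. CCL3, a ligand of CCR1, had a log2 fold change of 0.41 (adjusted p = 0.217), and its near-identical copy CCL3L1, with which it can share reads, 0.27 (adjusted p = 0.442). CCL22, a ligand of CCR4, was at 0.06 (adjusted p = 0.80).

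Receptors for the 10 chemokines were almost unread, apart from atypical ones that bind chemokines without G protein signalling. Of 13 receptor genes looked up, 11 were in the table and 3 were tested. CCR1 and CCR3 had no read in any library. CXCR3 and CX3CR1 reached at most 2 reads, CXCR6 at most 4, CCR6 at most 5 and CCR2 at most 12. ACKR3, which takes up CXCL11 and CXCL12, was the only one that passed: it averaged 64.4 CPM in M5_O5 and 119 CPM in M5 and fell by 0.89 on the log2 scale (SE 0.10, adjusted p = 1.67e-05, edgeR). CCR10, the CCL28 receptor, had a log2 fold change of 0.52 (adjusted p = 0.20) on at most 15 reads, and ACKR2, a scavenger of CC chemokines, -0.01 (adjusted p = 0.98).

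Genes that release, trim or hold chemokines moved in 1 direction where they passed. Of 11 tested, 6 were lower in M5_O5 and none higher, beside 17.6% lower and 19.5% higher over all genes tested, with a median log2 fold change of -0.21. ADAM10 and ADAM17, the proteases that shed CXCL16 and CX3CL1, fell by 0.21 (adjusted p = 0.0146) and 0.23 (adjusted p = 0.00511). RHBDF1, or iRhom1, a partner of ADAM17, fell by 0.42. The heparan sulfate carriers SDC1, HSPG2 and SDC4, which bind chemokines, fell by 0.69, 0.44 and 0.34. With library size scaling 4 of the 11 were lower, with either TPM setting 4, and with the expression trend removed 3.

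Genes of interferon-γ signalling, the route known for inducing CXCL9, CXCL10 and CXCL11, were found on both sides. Of 19 tested, 7 were higher and 4 lower, beside 19.5% and 17.6% of all genes tested, so that the lower share was near the background, with a median log2 fold change of 0.01. CIITA, the regulator of MHC class II genes, was higher by 1.71 and GBP1, an interferon-induced GTPase, by 1.07. JAK2, a kinase of the receptor, was higher by 0.69 and the immunoproteasome subunit PSMB9 by 0.41, while the receptor chain IFNGR2 fell by 0.58. The groups overlapped for JAK2, whose lowest M5_O5 library was at 8.89 CPM and highest M5 library at 9.20. The counts of the list moved with the processing: 9 were higher and 3 lower with library size scaling, and 5 and 5 without M5_O5 replicate 2.

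Genes of NF-κB signalling, through which TNF-α and IL-1α are known to induce CCL2, CCL5 and CCL20, were lower where they passed. Of 19 tested, 10 were lower in M5_O5 and none higher, beside 17.6% lower and 19.5% higher over all genes tested, with a median log2 fold change of -0.17. The count was 5 without M5 replicate 4 and 6 without M5_O5 replicate 1 or 2 or M5 replicate 2 or 3. The subunits RELA, REL and RELB fell by 0.43, 0.31 and 0.22, the adaptor TRAF6 by 0.34 and the inhibitor gene NFKBIA, itself a target, by 0.32. These are small differences that the scaling touched: 4 of the 19 were lower with library size scaling or with the expression trend removed, and 2 with either TPM setting, with 1 gene higher in each of those settings. The keratinocyte markers, for comparison, were lower for 5 of 10 with a median of -0.20, for 4 of 10 with a median of -0.09 with library size scaling, and for 1 of 10 with a median of -0.07 with the expression trend removed.

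**Figure D5:**
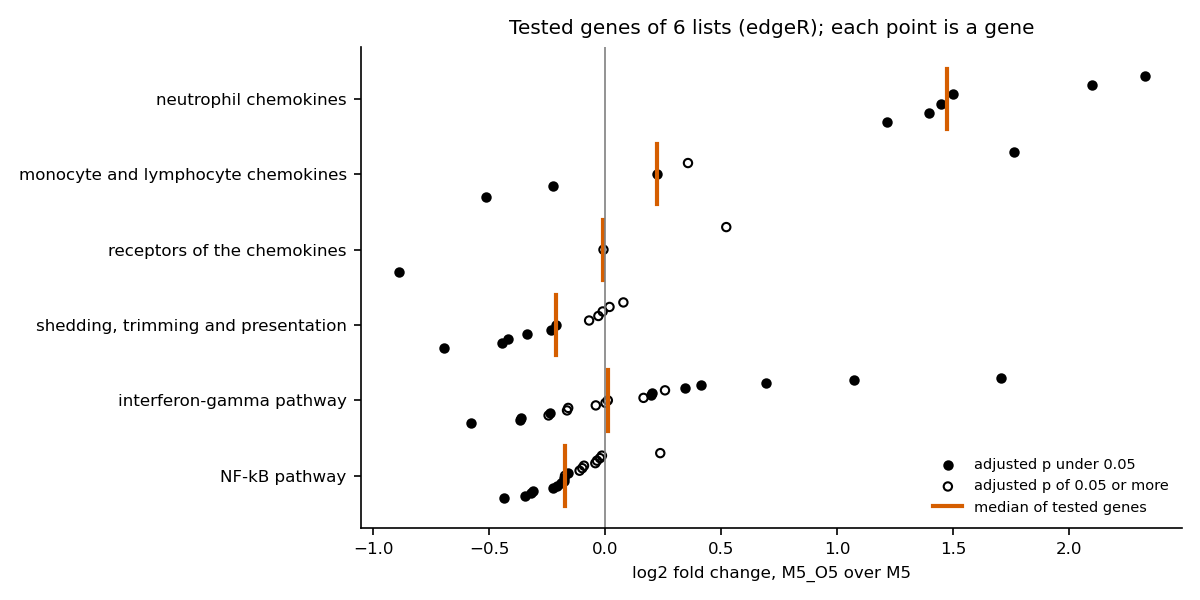
Log2 fold change of M5_O5 over M5 for every tested gene of 6 lists, filled where the adjusted p was under 0.05 (edgeR) and open where it was not, with the median of each list as an orange line. The 6 neutrophil chemokines all lie beyond 1, while the 5 tested monocyte and lymphocyte chemokines spread on both sides of 0, from -0.51 for CCL5 to 1.76 for CCL2.

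The genes whose pattern over the 8 libraries was most like that of each chemokine that passed were found by the root mean square difference of log2(CPM + 1), each centred on its own mean, among 11967 genes. For CCL2 these were MYBL2 (0.13), RRM2 (0.13) and IL6 (0.15), a cell cycle transcription factor, a subunit of ribonucleotide reductase and a cytokine. For CXCL16 they were UQCRQ, FCGRT and DUT (0.032 to 0.035), for CCL20 ING4, ZNF207 and FMR1 (0.037 to 0.041), and for CCL5 COX15, EFNA3 and HSPA1B (0.087 to 0.098). These distances describe likeness over the 8 libraries only, in which both groups enter. The added 1 CPM shrinks differences at low levels, so genes close on this scale can differ in fold change. MYBL2 and RRM2, at 5.65 and 6.07 CPM, had log2 fold changes of 2.12 and 2.22 and IL6 1.62, against 1.76 for CCL2. COX15, EFNA3 and HSPA1B had -0.43, -0.32 and -0.43, against -0.51 for CCL5.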

How the data were processed

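RNA from HaCaT cultures was sequenced in 8 libraries, and groups were taken from the library titles. The authors mapped reads with HISAT2 and, per the methods, counted them with StringTie; the submitters' processing notes name HISAT2 2.1.0, Bowtie2 2.2.5 and RSEM 1.2.8 and the mouse build mm10, although the deposited table lists human RefSeq transcripts. The human build is not given in the sources used here. The authors deposited estimated counts, not normalized, with TPM (scaled to a fixed sum per library and to transcript length). The deposited FPKM columns and the authors' group columns were not used.

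Estimated counts of 86639 transcripts, fractional in 53.8% of values, were summed to 17131 genes by Entrez identifier and rounded. Symbols matched 17072 genes, and the 59 others took up to 0.0201% of the total in any library. Genes were kept by filterByExpr (12434), scaled by TMM and compared with edgeR 4.0.16 (R 4.3.3) by the quasi-likelihood test with Benjamini-Hochberg adjustment over all genes tested. CPM are TMM-scaled. The biological coefficient of variation was 7.42%. The floor was 3 counts, and intervals are at 95%. Counts of replicates differed by more than sampling noise in every pair (chi-square per gene 2.01 to 16.2), so all libraries were counted.

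The chemokines and gene lists were chosen with earlier results of these data known. Named are the 10 chemokines, PBK, at most 5 genes of largest change past the threshold per list, every receptor detected, and the 3 genes most like each chemokine that passed (mean of at least 1 CPM). Genes named beyond that rule (CCL3, CCL3L1, CCL22, ADAM10, CXCL3 and the receptors without a read) were chosen after their values were seen. Alternatives were DESeq2 1.42.0, library size scaling, other filters, limma 3.58.1 on log2(TPM + 1) and log2(TPM + 0.1), the replicate number as a block, removal of the expression trend, and each library left out. Some single-gene results are not reported here.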

Additional observations from a re-analysis of the deposited data

Results flagged for a closer look

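A library far from the other 3 of its group was looked for in each of the 20 groups made by 10 chemokines and 2 titles. The rule flagged 3, where about 1 is expected by chance for values that vary smoothly. With so few reads that number does not apply, since 1 read against none is always flagged, and no excess is read from it. CXCL9 in M5 replicate 1 was at 0.073 CPM, which is 1 read, with no read in the other 3 libraries. CX3CL1 in M5 replicate 2 was at 0.0653 CPM, likewise 1 read against none. CXCL14 in M5_O5 replicate 3 was at 0.178 CPM, or 3 reads, below the 0.345 to 0.356 CPM of the other M5_O5 libraries. All 3 values are at or under 3 reads.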

How the results depend on the processing

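Of 80 alternative values for the 5 tested chemokines (16 settings each), 67 kept direction and side of the threshold, 9 lost the call, 4 gained it (all CCL28) and none changed sign. CCL2 and CXCL16 passed in all 16, so 2 chemokines or more were higher throughout. The number of lower chemokines was 2, and became 0 with library size scaling and 1 with limma on log2(TPM + 1) and on log2(TPM + 0.1). Leaving out each library gave 1 to 2. Wherever the number dropped CCL20 was among the calls lost, and CCL5 was lost with library size scaling alone. Library size scaling moved the median log2 fold change of all genes from 0.01 to 0.13, and the TPM settings to 0.12 and 0.13. Genes past the adjusted threshold went from 2421 higher and 2192 lower to 3858 and 1008 with library size scaling, and to 3261 and 761 and 3264 and 768 with the TPM settings. Calls at 2-fold over all genes numbered 398 and fell to 152 with limma on log2(TPM + 1), and the share of them that was higher went from 89.7% to 76.6% with the expression trend removed. The replicate numbers did not clearly pair the libraries. Same-numbered deviations correlated at 0.21, 0.099, -0.0036 and 0.013, and 2 of 4 correlated best with their own number. With the replicate block, 400 genes were called at 2-fold, CCL2 stood at 1.78 and no chemokine's call changed. At an adjusted p under 0.05 the block gave 2702 genes higher and 2552 lower. The SE of CCL2 was 0.091 with the block and 0.15 without it. Depth left 5 of the 10 chemokines untested.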
